A study of Mus musculus with 10 samples.

Results

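Cluster 14 is a group of 57 neurons of the mouse paraventricular hypothalamus (PVH) that express corticotropin-releasing hormone (*Crh*), *Reln*, *Ntng1* and *Fam150b* and, in some of the cells, proenkephalin (*Penk*). Its members were all cells that carry cluster number 14 in the authors' table of cells kept after quality control. They made up 57 of 706 cells in that table, and 57 of the 664 cells in the 12 clusters assigned to the PVH. The remaining 607 PVH cells were the reference, and the 42 cells of clusters 5, 6 and 11, which lie outside the PVH, were left out of all comparisons.

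The cells came from male offspring of *Agrp-IRES-Cre* mice crossed with Ai9 mice, older than 7 weeks, in which Cre made from the *Agrp* locus switches on the red fluorescent protein tdTomato of the Ai9 reporter. All mice carried both alleles and none was treated, so no conditions were compared. The sample labels describe the picked cells as labelled neurons, whereas the methods use the fluorescent axons of AGRP neurons only to find the edge of the PVH. *Agrp* had no UMI in any of the 57 members. Cells were picked by hand from slices treated with pronase and blockers of neuronal activity, reverse transcribed singly with barcoded primers and amplified as a pool per plate. The samples are 10 plates of 96 wells, 4 with the prefix Q, 2 with AL and 4 with JM. The plate was the replicate, because the labels do not tie plates to animals, and the p-values measure the spread between plates.

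CRH is the hypothalamic releasing hormone of the stress axis, and the neurons that secrete it to the pituitary lie in the PVH. Proenkephalin is cut into the enkephalins, opioid peptides that act on delta and mu receptors. Reelin (*Reln*) is a secreted glycoprotein that binds the receptors VLDLR and APOER2 (*Lrp8*) and signals through the adaptor DAB1. Netrin-G1 (*Ntng1*) is a membrane-anchored protein that binds the synaptic protein NGL-1 (*Lrrc4c*). *Fam150b* encodes a secreted ligand of the receptor tyrosine kinase ALK. PVH neurons are mostly glutamatergic and derive from progenitors that express *Sim1* and *Otp*.

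Each member held between 55378 and 396893 unique molecular identifiers (UMIs), with a median of 102969. A UMI count is a count of tagged cDNA molecules, and levels are given as CPM, a gene's UMIs over all gene UMIs of the summed cells of a plate scaled to 1e+06, so levels of one gene are compared between groups of cells and not between genes. Plate sums of cluster 14 held 427396 to 2546904 UMIs. Of the 10 plates, 8 held at least 3 members, and these 8 plates with 54 of the 57 cells were used to compare levels with the other PVH cells. Contrasts with single clusters used every plate with at least 3 cells of that cluster, up to 10 plates for cluster 1. The library columns shared 0 cell names, and no doublet caller was run on these hand-picked cells. Markers of neurons and of the PVH were present. *Snap25*, a synaptic protein, had a UMI in 98.2% of members, *Otp* in 98.2%, the vesicular glutamate transporter *Slc17a6* in 96.5% and *Sim1* in 56.1%. The vesicular GABA transporter *Slc32a1* had no UMI in any member or in any other PVH cell. With 3 counts as the floor, 0 of 57 allows up to 5.26% of cells with a UMI, which is no limit on cells that express the gene below detection.

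All 57 members had a *Crh* UMI (exact Clopper-Pearson interval 93.7% to 100%), against 15.98% of the other PVH cells. *Reln* was detected in 86.0% of members and 14.7% of the others, *Ntng1* in 84.2% and 18.1%, and *Fam150b* in 75.4% and 5.60%. *Penk* was detected in 26 of 57 members, a share of 45.6% (32.4% to 59.3%), and in 15.98% of the others. In cluster 1, a large cluster in which *Crh* is not a marker, 8.14% of 221 cells had a *Crh* UMI at a median depth of 183836 UMIs. In 2.26% of its cells there were 3 or more. The source of these UMIs was not tested. At equal depth, with each cell thinned to 63413 UMIs (48 members and 549 others), *Crh* was detected in 95.8% of members and 12.02% of the others and *Penk* in 41.7% and 11.7%. The intervals cover counting error only.

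**Figure D1:**
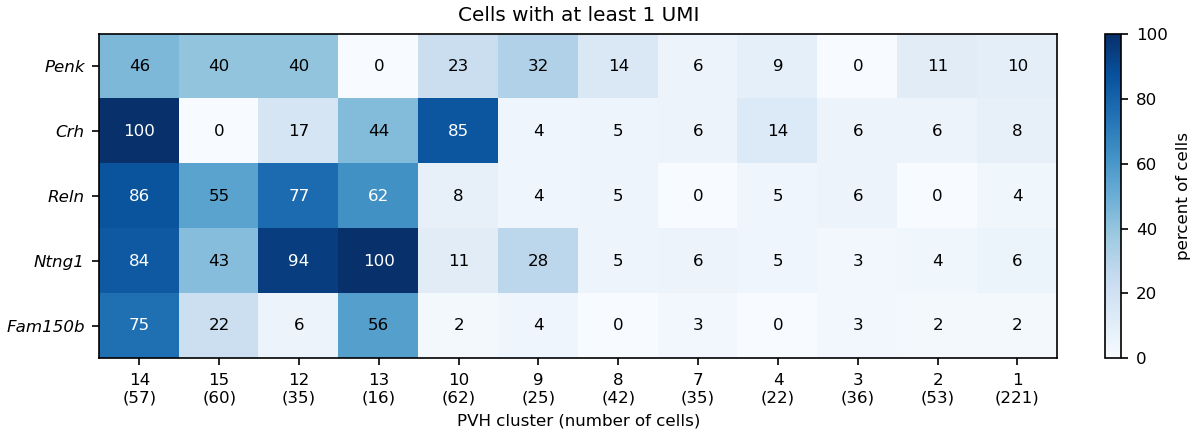
Percent of cells with at least 1 UMI of each marker gene (rows) in the 12 PVH clusters (columns, with the number of cells). *Crh* was detected in 100% of cluster 14 cells and in 0 of 60 cells of cluster 15, and *Reln* and *Ntng1* were shared with clusters 12, 13 and 15.

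The markers were found together in single cells. Of the 57 members, 12 had UMIs of all 5 genes, 33 had 4, 7 had 3 and 5 had 2. No other PVH cell had all 5, and 9 of 607 had 4. *Reln* and *Fam150b* were both detected in 39 members, and *Ntng1* and *Fam150b* in 34. *Crh* varied from 3.29 to 2894 CPM between members with a median of 335, and its lower quartile was 166. *Penk* was far more uneven. Its median over members was 0 CPM because 31 cells had no UMI, yet 16 cells exceeded 1000 CPM, the highest cell reached 9313, and the 5 highest cells held 45.5% of the summed level. Among members with a *Penk* UMI the median *Crh* level was 201 CPM and among those without 426 CPM, while the means stood in the other order at 582 and 536. Members with a *Penk* UMI were shallower (median 91531 UMIs) than those without (117214).

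*Crh* by plate ranged from 230.5 to 935 CPM in cluster 14, with a median of 539, and from 10.7 to 349 in the other PVH cells, with a median of 100.4. Cluster 14 was higher on all 8 plates (2.33 ± 0.35 on the log2 scale, fold change and SE, adjusted p = 9.68e-04 by edgeR), although the ranges overlapped because the highest reference plate, JM8, exceeded the lowest member plates. With cells thinned to equal depth the difference was 2.92 ± 1.04 and did not pass (edgeR adjusted p = 0.199). *Reln* ranged from 139 to 437 CPM with a median of 295, against 2.27 to 78.5 with a median of 49.1 (log2 fold change 2.92 ± 0.33, edgeR adjusted p = 6.08e-05). *Ntng1* ranged from 92.3 to 343 with a median of 159, against 19.8 to 53.7 with a median of 27.2 (2.505 ± 0.31 on the log2 scale, edgeR adjusted p = 1.23e-04). *Fam150b* was the most even of these genes over plates, from 130.0 to 241 with a median of 158, against 0.422 to 26.5 with a median of 7.06 (4.56 ± 0.52 on the log2 scale, edgeR adjusted p = 5.79e-05). For *Reln*, *Ntng1* and *Fam150b* every plate of cluster 14 lay above every plate of the reference, as did 0.43% of all tested genes. Genes with every plate of cluster 14 below every plate of the reference made up 1.19%. Single cells weighed on some plate levels. By plate, the top cell held 24.5% (JM8) to 90.0% (Q7) of the members' *Crh* UMIs. The range was 25.3% (AL6) to 90.7% (AL5) for *Reln*, 25.2% (JM8) to 65.8% (Q7) for *Ntng1* and 26.1% (JM8) to 75% (Q7) for *Fam150b*.

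**Figure D2:**
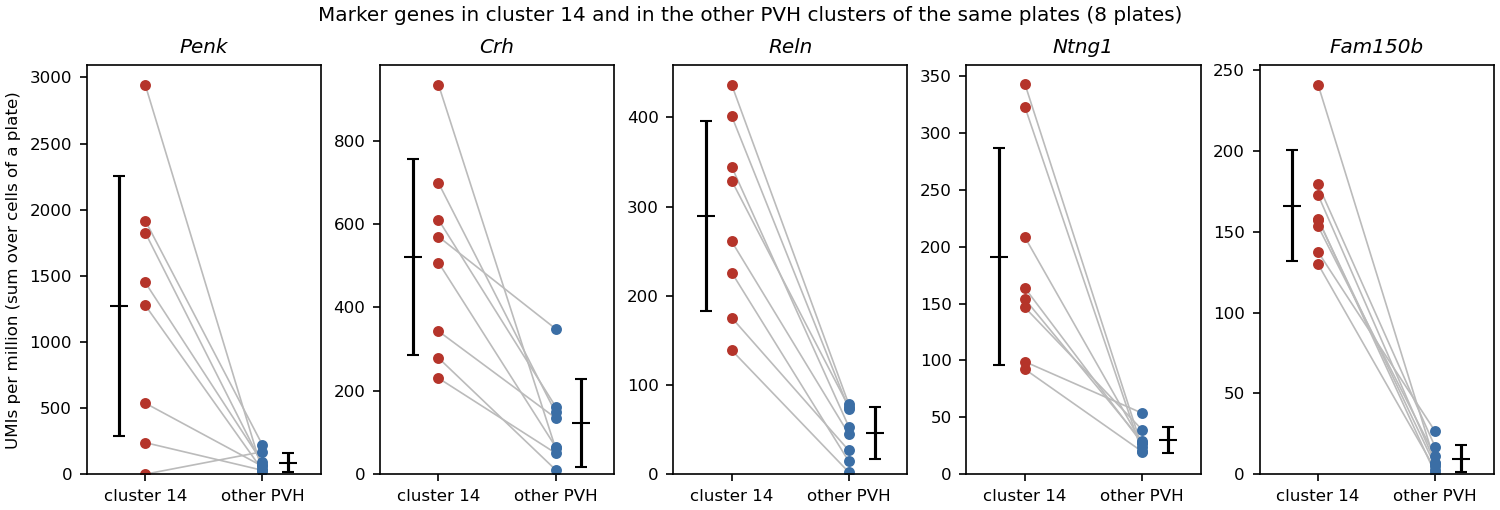
CPM of the 5 marker genes on each of 8 plates, for the summed cells of cluster 14 (red) and of the other PVH clusters (blue), with lines joining a plate and black bars for the mean ± SD. *Crh*, *Reln*, *Ntng1* and *Fam150b* fell from left to right on all 8 plates, and *Penk* on 7, since plate JM7 had none in cluster 14.

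*Penk* did not pass the test. Its level was 1274 ± 984 CPM (SD, n = 8) in cluster 14 and 87.0 ± 72.2 in the reference, 3.66 ± 1.15 higher on the log2 scale (adjusted p = 0.141 by edgeR). It was higher on 7 of 8 plates and ranged from 239 to 2945 CPM on those. On plate JM7 none of the 7 members had a *Penk* UMI, while the other PVH cells of that plate stood at 169.6 CPM. Without JM7 the log2 fold change was 4.14 ± 0.57 (edgeR adjusted p = 0.0106), and with cluster 15 taken out of the reference it was 4.65 ± 0.41 (5.81e-05). The plate levels rested on few cells. On Q5 a single cell held 93.7% of the *Penk* UMIs of its plate's members, and on Q7 a single cell held all of them.

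Across all genes, 152 of 10699 tested were higher in cluster 14 than in the other PVH clusters (1.42%) and 426 were lower (3.98%) at an edgeR adjusted p under 0.05. The median log2 fold change over all tested genes was -0.39, and -0.11 over the 3907 genes with a mean level of at least 50 CPM, so small negative values of single genes should be read against that. Of the 5 markers, 4 were among the higher genes. The clusters had been drawn from these same counts, so these p-values grade how steadily a gene separated over plates and are not independent evidence for the cluster. With the 221 cells of cluster 1, which is rich in *Oxt*, taken out of the reference, 95 were higher and 201 lower, and 79 of the 152 higher genes remained. On the 2 Q plates alone, 10 were higher and 11 lower. Without plate AL6 101 were higher, and without plate Q5 271 were lower.

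Among the 120 genes that were higher in all 8 plates, passed the test and had a UMI in at least 30% of members, those with the largest changes are given here by level and change. *Sparcl1*, which encodes the secreted matrix protein hevin, ranged over plates from 262 to 639 CPM with a median of 413, against 25.1 to 102 (log2 fold change 2.63 ± 0.19, edgeR adjusted p = 8.80e-07). *Trhde*, the ectoenzyme that degrades thyrotropin-releasing hormone, ranged from 40.7 to 147 against 2.75 to 26.2 (2.84 ± 0.44). For both genes no plate of cluster 14 reached down to the highest plate of the reference. *Sparcl1* had a UMI in 93.0% of members and 33.9% of the other cells, and *Trhde* in 80.7% and 13.2%.

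Also higher on all 8 plates, with ranges that overlapped, were *Cbln1*, a secreted organizer of synapses (16.5 to 175 CPM in cluster 14, 5.13 to 43.5 in the reference), and *Fgf1*, a fibroblast growth factor (23.2 to 278 against 13.1 to 24.1). *Vwc2*, a secreted protein linked to BMP signalling, had a log2 fold change of 2.61 ± 0.44, the collagen gene *Col16a1* 2.80 ± 0.54, *Rgs8*, a regulator of G-protein signalling, 2.61 ± 0.56, and *Caln1*, a neuronal calcium-binding protein, 2.72 ± 0.59. *Nkx2-2*, a homeobox transcription factor, had a UMI in 56.1% of members and 5.44% of the other cells, and its level of 12.6 to 48.4 CPM against 0.197 to 14.5 gave an edgeR adjusted p = 0.0418. *Rasgrp2*, an exchange factor for small GTPases, was similar (11.7 to 101 against 2.04 to 13.8, adjusted p = 0.0358 by edgeR). The calls of *Nkx2-2* and *Rasgrp2* were lost in 12 and 9 of 21 alternative settings, whereas *Reln*, *Ntng1*, *Fam150b* and *Sparcl1* passed in all 21. Several of the raised genes were shared with cluster 15, where *Nkx2-2*, *Trhde*, *Vwc2* and *Cbln1* had means of 22.9, 46.6, 44.4 and 53.9 CPM. Cluster 14 had 31.1, 86.6, 72.8 and 103. *Fgf1* and *Col16a1* were further apart, at 23.8 and 10.9 against 113 and 45.4. *Caln1* had a UMI in 51.4% of cluster 12 cells and 42.1% of members. None of these passed against cluster 15.

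Most of the genes with the largest negative changes were at or near 0 in cluster 14. *Sst*, the somatostatin precursor, ranged from 0 to 21.0 CPM with a median of 1.51, against 0.395 to 2234 with a median of 579 (edgeR adjusted p = 5.77e-12). *Rxfp3*, the receptor of relaxin-3, had 3 UMIs over the member plates (0 to 1.5 CPM, against 34.1 to 145). *Vim*, an intermediate filament, had 1 UMI (0 to 1.24 CPM against 30.2 to 73.2), and *Fam19a1*, a small secreted protein, had 2 (0 to 0.785 against 20 to 91.6). *Plk2*, a kinase induced by neuronal activity, was detected in 5.26% of members and 60.3% of the other cells (0 to 17.0 CPM against 56.7 to 97.0, edgeR adjusted p = 1.07e-04). *Fezf2*, a zinc finger transcription factor, had all its UMIs in 1 member (0 to 9.42 CPM against 14.7 to 31.3). The histone gene *Hist1h2bc* stayed at or below 4.596 CPM against 13.2 to 40.6, and *Plpp4*, a lipid phosphatase, had a median of 0.196 against 110.1. Some of these genes were low in clusters 15, 12 and 13 too. *Vim* had means of 0.35, 2.57 and 0 CPM there and *Plpp4* of 7.44, 3.77 and 0, against 54.1 and 185 in cluster 1. *Plk2* was less low, at 25.2, 46.3 and 28.2. *Sst* was near the mean of cluster 14 (4.73) in cluster 12 (8.08). Its means were higher but uneven over plates in clusters 15 (326 ± 658, SD, n = 8) and 13 (90.9 ± 155, n = 3).

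*Oxt* and *Avp*, the hormones of the magnocellular neurons, were among the 10 most lowered genes with a UMI in at least 30% of the reference cells. *Avp* ranged from 50.9 to 688 CPM against 4389 to 17878 (log2 fold change -5.79 ± 0.65, edgeR adjusted p = 0.00272). *Oxt* had a median of 217 CPM against 23404 (edgeR adjusted p = 0.00872), with 7 plates between 30.1 and 534 CPM and plate Q7 at 11934. On Q7 a single member carried 9562 *Oxt* UMIs, or 24092 CPM, and the next highest member of any plate had 2222 CPM. Whether that well held a second cell was not tested. Both hormones had at least 1 UMI in nearly all members (*Oxt* 94.7%, *Avp* 93.0%) and in nearly all other PVH cells (99.2% and 96.9%), at median levels of 89.4 and 52.4 CPM in members, so their detection alone says nothing of expression. Of 9 magnocellular markers tested, *Oxt*, *Avp* and *Kcnmb4*, a subunit of the large-conductance potassium channel, were lower and none was higher.

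Of 15 neuropeptide precursors tested, 1 was higher (*Crh*) and 4 were lower (*Tac1*, *Sst*, *Oxt* and *Avp*), with a median log2 fold change of -1.64, where 1.42% of all genes were higher and 3.98% lower. *Tac1*, the substance P precursor, had 3 UMIs over 8 plates, against 66.3 to 299 CPM in the reference. It passed the filter on low counts through the reference, so it could only be called lower. *Pdyn*, the prodynorphin gene, was at 66.4 to 352 CPM with a median of 233 and had a UMI in 70.2% of members. It did not pass the test against 103 to 349 CPM with a median of 236 (log2 fold change -0.35 ± 0.30, edgeR adjusted p = 0.557). *Trh* was at 0 on 4 of 8 plates and reached 299 CPM on JM7 through 1 cell (log2 fold change -3.81 ± 1.52, edgeR adjusted p = 0.238).

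Of 19 genes tested that process and store peptides, 8 were lower and 1 was higher, with a median log2 fold change of -0.72. These genes are abundant, and among all tested genes with a mean level of at least 50 CPM 3.51% were higher and 6.86% lower. *Pam*, which amidates peptide hormones, ranged from 32.8 to 268 CPM with a median of 100.3, against 358 to 670.5 with a median of 534 (log2 fold change -2.44 ± 0.21, edgeR adjusted p = 3.21e-06). *Pcsk1*, the prohormone convertase PC1/3, ranged from 0 to 106 with a median of 10.3, against 126 to 208 (-3.61 ± 0.61, edgeR adjusted p = 0.00192). In both genes the plates of cluster 14 lay wholly below those of the reference. *Ptprn*, *Resp18*, *Cpe*, *Chgb* and *Scg5*, which encode granule proteins and carboxypeptidase E, were lower by 0.52 to 1.03 on the log2 scale and remained detected in 94.7% or more of members. *Pcsk1n* was lower by a log2 fold change of -0.29, and that call was lost in 16 of 21 settings. *Chga*, chromogranin A, went the other way, with 82.8 to 688 CPM against 43.7 to 199 (0.95 ± 0.20, edgeR adjusted p = 0.00979). That call was lost without cluster 1, without the plate block and on the Q plates alone, and without cluster 1 the list had 0 higher and 7 lower genes.

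Of 36 genes tested in the vesicle release machinery, 11 were higher and 1 was lower, and the median log2 fold change was 0.32, against -0.39 for all genes and -0.11 for those with a mean level of at least 50 CPM, of which 3.51% were higher and 6.86% lower. *Syt4*, a synaptotagmin of dense-core vesicles, ranged from 446 to 1417 CPM with a median of 1161, against 192 to 648 with a median of 532 (0.97 ± 0.11, edgeR adjusted p = 8.35e-05). *Cplx1*, complexin 1, which binds the SNARE complex, had a median of 297 CPM against 89.2 (1.47 ± 0.23, edgeR adjusted p = 9.57e-04). *Nsf*, the ATPase that takes SNARE complexes apart, had a median of 536 against 233 and *Rab27b*, a small GTPase of secretory vesicles, 162 against 70.6. *Syt5* was the lower gene (-0.82 ± 0.19). With cluster 1 taken out of the reference, 8 were higher and 1 lower.

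Of 81 ribosomal protein genes tested, 55 were lower (67.9%), 0 were higher, and 80 had a negative log2 fold change, with a median of -0.58. With cluster 1 taken out of the reference, 32 were lower and 0 higher, with a median of -0.51. Against the full reference, 3.98% of all tested genes were lower, with a median of -0.39. Among those with a mean level of at least 50 CPM, 6.86% were lower, with a median of -0.11. *Rpl10* ranged from 342 to 894 CPM with a median of 537, against 828 to 1970.3 with a median of 1549.8 (-1.40 ± 0.12, edgeR adjusted p = 3.21e-06). *Rps12*, *Rps15a* and *Rpl36al* were lower by 0.98, 0.91 and 0.91 on the log2 scale. Reads of ribosomal protein genes can be shared with their processed pseudogenes, and how the authors' counting split them is not stated. The plate medians of a cell's share of UMIs in these genes were 2.77% ± 0.664 (SD, n = 8) in cluster 14 and 3.89% ± 0.742 in the other PVH cells, lower on 8 of 8 plates (exact sign-flip permutation test, two-sided p = 0.00781, the smallest this design allows, 0.0547 after adjustment over 7 measures). This was not particular to cluster 14, since the median cell of clusters 12, 13 and 15 also stood low, at 3.05%, 3.05% and 3.00%, against 2.82% in cluster 14 and 4.48% in cluster 1. On the 7 plates with at least 3 cells of both, the share in the summed cells of a plate, another measure, was 2.78% ± 0.657 in cluster 14 and 2.8997% ± 0.815 in cluster 15, and cluster 14 was higher on 2.

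**Figure D3:**
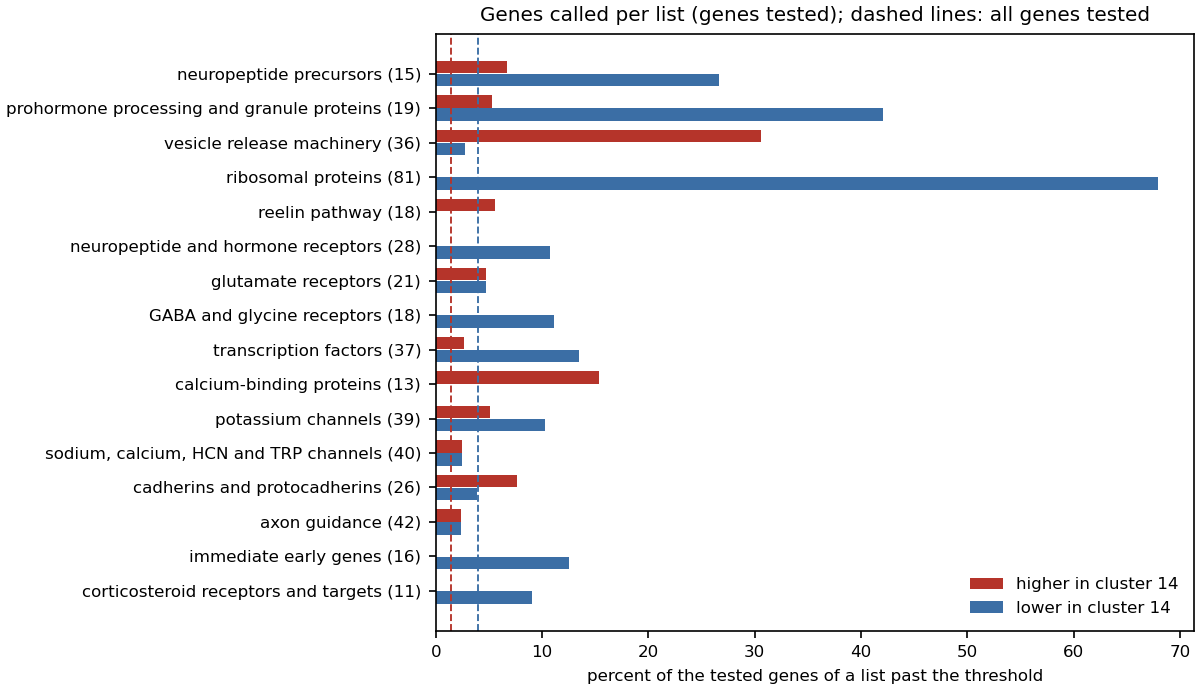
Percent of the tested genes of each list (number tested in parentheses) that were higher (red) or lower (blue) in cluster 14 than in the other PVH clusters, with dashed lines at 1.42% and 3.98% for all genes. Ribosomal proteins and prohormone processing stood out on the lower side, and vesicle release on the higher side.

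Total UMIs, genes detected, genes detected at equal depth, gene UMIs per spike-in UMI and the mitochondrial share did not pass the test between members and the other PVH cells (exact permutation, adjusted p of 0.237 to 0.953). The log2 ratio of the plate medians of total UMIs was -0.02 ± 0.29 (SD, n = 8). The share of immediate early genes was 0.0559% ± 0.0330 against 0.0918% ± 0.0447, lower on 7 of 8 plates (exact permutation p = 0.0391, adjusted 0.137). Of 16 immediate early genes tested, *Fosl2* and *Dusp1* were lower (12.5%) and 0 were higher, where 3.98% of all genes were lower and 1.42% higher. *Fosl2*, a member of the AP-1 family, ranged from 0 to 88.7 CPM against 43.4 to 236. The slices had been kept in blockers of neuronal activity.

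In the signalling partners of the marker genes little else passed. Of 18 genes tested in the reelin pathway, *Reln* was higher and none was lower, with a median of 0.06. *Vldlr* had a median of 6.78 CPM against 30.1 (edgeR adjusted p = 0.0655), *Lrp8* 33.3 against 14.5 (0.689) and *Dab1* 12.5 against 21.4 (0.408). Of 4 genes tested among netrin-G proteins and their ligands, only *Ntng1* passed, and *Lrrc4c* had a median of 16.2 CPM against 35.9 (edgeR adjusted p = 0.282). Of 3 tested among ALK ligands and receptors, *Fam150b* passed. *Alk* itself had a UMI in 12.3% of members and *Ltk* in 10.5%, both under the filter on low counts. Of the CRH system, *Crh* alone could be tested. *Crhr1* had a UMI in 3.51% of members, *Crhbp* in 3.51% and *Crhr2* in 0 of 57.

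Receptors were as sparse. Of 5 opioid system genes tested 0 were higher and 1 was lower (20%), where 1.42% of all genes were higher and 3.98% lower. The lower gene was *Oprk1*, the kappa receptor (0 to 51.0 CPM with a median of 10.3, against 46.0 to 142 with a median of 78.5, edgeR adjusted p = 0.00603). *Oprl1*, the nociceptin receptor, had a UMI in 78.9% of members at a median of 95.4 CPM against 109 (adjusted p = 0.916 by edgeR). *Oprm1*, the mu receptor, had a UMI in 14.04% of members and 4.28% of the other cells and was too low to test. Of 28 neuropeptide and hormone receptors, *Rxfp3*, *Galr1* and *Npy1r* were lower (10.7%) and none was higher, with a median of -0.90. *Rxfp3* and *Npy1r* had a median of 0 CPM in cluster 14. They passed the filter on low counts through the reference, so they could only be called lower. Of 11 corticosteroid receptors and targets, *Dusp1* was lower (9.09%) and none was higher. *Nr3c1*, the glucocorticoid receptor, had a UMI in 22.8% of members and did not pass (log2 fold change -1.79 ± 0.72, edgeR adjusted p = 0.187).

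Members carried the marker of glutamatergic neurons. *Slc17a6* ranged from 89.9 to 497 CPM with a median of 297, against 77.2 to 235 with a median of 159, and was higher on all 8 plates (0.62 ± 0.16, edgeR adjusted p = 0.0310, a call lost in 10 of 21 settings). *Gad2*, which makes GABA, had a UMI in 26.3% of members and 12.9% of the others, with plates from 0 to 279 CPM, while *Gad1* had none and was found in 0.659% of the others. *Gad2* did not pass the test (log2 fold change -1.03 ± 0.80, edgeR adjusted p = 0.524). Its mean went the other way, at 51.9 CPM against 32.7, with 4 plates higher and 4 lower. *Th*, tyrosine hydroxylase, was lower (median 45.3 CPM against 161, -2.36 ± 0.57, edgeR adjusted p = 0.0224). Of 21 glutamate receptor genes, *Grm5*, a group I metabotropic receptor, was higher (median 72.2 against 19.1) and *Grm3* lower (median 0 against 44.1). That is 4.76% each way, where 1.42% of all genes were higher and 3.98% lower. Of 18 GABA and glycine receptor genes 0 were higher and 2 were lower (11.1%), among them *Gabra5* (log2 fold change -3.75 ± 1.03).

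Of 37 transcription factors tested, *Nkx2-2* was higher (2.70%) and 5 were lower (13.5%), among them *Fezf1*, *Fezf2*, *Tshz1* and *Pou3f2*, with a median of -0.95. *Fezf1* had 0 UMIs in the 57 members and 10.7 to 47.8 CPM in the reference. It passed the filter on low counts through the reference, so it could only be called lower. *Hpca*, the calcium sensor hippocalcin, and *Ncald*, neurocalcin, were the higher members of 13 calcium-binding proteins (2.06 ± 0.35 and 0.82 ± 0.18), and none was lower. That is 15.4% higher, where 1.42% of all genes were. Of 39 potassium channel genes 2 were higher (5.13%) and 4 lower (10.3%), where 1.42% and 3.98% of all genes were. *Kcna2* had a UMI in 70.2% of members and 16.8% of the others (2.06 ± 0.55), *Kcnt1* was higher by 1.17 ± 0.32, and *Kcnmb4*, *Kcnf1*, *Kcnj9* and the antisense transcript *Kcnmb4os2* were lower. The calls of *Kcna2*, *Kcnt1* and *Kcnj9* were lost in 9, 12 and 11 of 21 settings. Without a stated use of strand, reads of *Kcnmb4* and *Kcnmb4os2* cannot be told apart. Of 40 sodium, calcium, HCN and TRP channel genes, *Scn3b*, a sodium channel beta subunit, was higher (519 to 1119 CPM against 347 to 541, 0.91 ± 0.11) and *Trpm4* lower. Of 26 cadherins *Pcdh8* and *Pcdh10* were higher (7.69%) and *Cdh13* lower (3.85%), and of 42 axon guidance genes *Robo2* was higher and *Unc5c* lower. The shares of the channel list with *Scn3b* (2.5% and 2.5%) and of the axon guidance list (2.38% and 2.38%) were near those of all genes, and the calls of *Robo2*, *Unc5c* and *Pcdh8* were lost in 11, 13 and 7 of 21 settings. None of 11 monoamine and acetylcholine receptors and none of 10 mitochondrially encoded genes passed.

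Markers of glia and vessels were mostly at 0 in cluster 14, whereas some of other neurons were detected. Of 9 microglia markers 8 had no UMI, of 12 vascular and ependymal markers 10 had none, of 7 astrocyte markers 4 had none (*Aqp4*, *Gfap*, *Slc1a3* and *Agt*), and of 10 oligodendrocyte markers 6 had none. The summed level of a list by plate was 0 to 56.2 CPM for astrocytes, 0 to 66.6 for oligodendrocytes, 0 to 9.42 for microglia and 0 to 5.998 for vascular and ependymal cells, against 8.06 to 38.8, 26.4 to 51.5, 0 to 8.41 and 1.97 to 6.52 in the other PVH cells. Of 12 midline thalamus markers 4 had no UMI, and their summed level was 46.8 to 311 CPM against 270.2 to 459, with *Calb2* in 45.6% of members and *Rora* in 22.8%. Of 12 markers of inhibitory neighbours 10 had none, and the summed level was 0 to 279 CPM against 14.2 to 57.5, with *Gad2* alone at 279 CPM on the highest plate. Their part in the values above was not tested.

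The fewest genes separated cluster 14 from cluster 15. In a fit of all 12 PVH clusters, 1 of 13082 genes was higher in cluster 14 than in cluster 15 (0.00764%) and 3 were lower (0.0229%). The higher gene was *Crh*, which had 4126 UMIs in the 57 cells of cluster 14 and 0 in the 60 cells of cluster 15. The limit that a count of 0 allows over all cells of cluster 15 (3 counts over the group) is 0.441 CPM, so *Crh* was at least 1152-fold higher in cluster 14. Both clusters had been drawn from these same counts, so this fold describes the cluster labels and is not independent evidence for the split. No *Crh* UMI at all is fewer than in other clusters in which *Crh* is not a marker, where 4.00% to 17.1% of cells had one outside clusters 10 and 13. The lower genes were *Ddc*, aromatic amino acid decarboxylase (0.0908 ± 0.257 CPM, SD, n = 8, against 36.7 ± 32.7), *Plk2* (2.17 ± 5.98 against 25.2 ± 32.6) and *Pam* (122 ± 74.1 against 254 ± 107).

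The other markers did not pass the test between clusters 14 and 15. On the 7 plates with at least 3 cells of each, *Reln* was at 293 ± 114 CPM in cluster 14 and 178 ± 108 in cluster 15, *Ntng1* at 189 ± 102 and 108 ± 108, and *Fam150b* at 167 ± 36.9 and 28.2 ± 29.1, each higher in cluster 14 on 7 of 7 plates. The edgeR adjusted p was 1.00 for *Reln*, 0.981 for *Ntng1* and 0.387 for *Fam150b*. *Penk* was at 1035 ± 774 and 289 ± 278, higher on 5 of 7 (adjusted p = 1.00 by edgeR). DESeq2 called 173 genes higher and 155 lower in the same contrast. When the cells of each plate were given to the cluster whose mean profile on the other plates they resembled most, 49 of 57 members returned to cluster 14 (86.0%, exact interval 74.2% to 93.7%). The other members went to clusters 15 (3 cells), 12 (3 cells) and 8 (2 cells), and 18 of 60 cells of cluster 15 were given to cluster 14. The labels had been drawn from all plates together, the left-out one included, so a high return is in part built in. The interval treats cells as independent and leaves out the spread between plates.

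**Figure D4:**
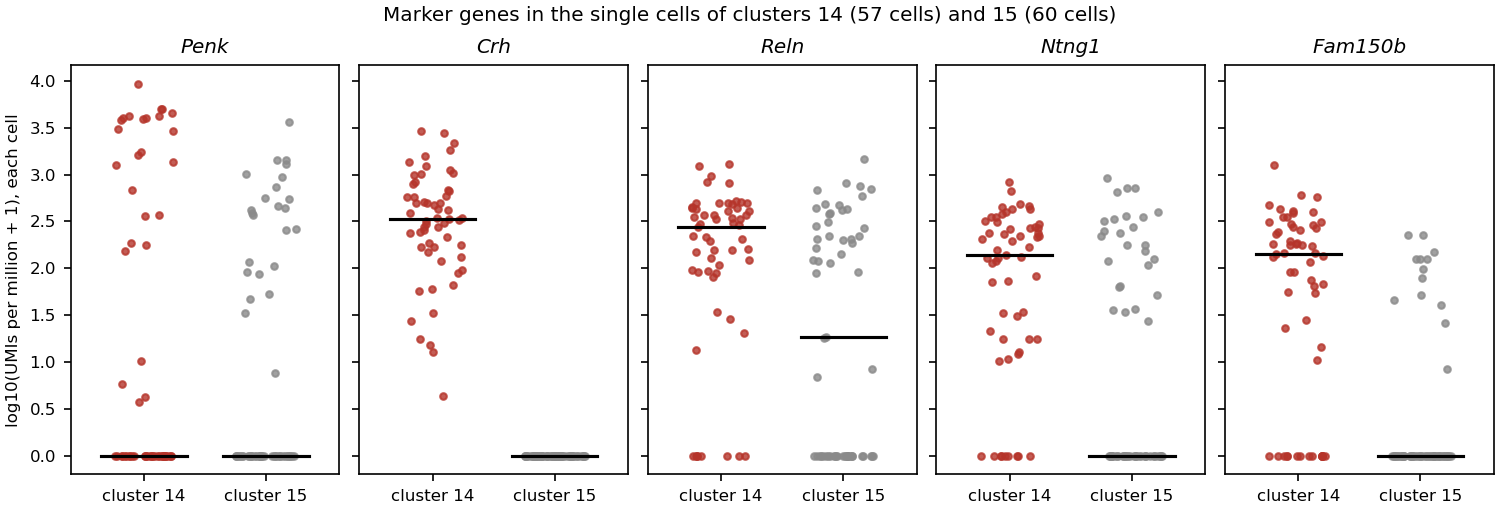
Level of each marker in the single cells of clusters 14 (red, 57 cells) and 15 (grey, 60 cells), as log10 of CPM plus 1, with a black line at the median. *Crh* had a UMI in every cell of cluster 14 and in none of cluster 15, clusters that had been drawn from these same counts. *Penk*, *Reln*, *Ntng1* and *Fam150b* were found in cells of both.

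All these contrasts share the plate sums of cluster 14, and the clusters differ in cells and plates. Against cluster 12, 11 of 13082 genes were higher in cluster 14 (0.0841%) and 8 lower (0.0612%). *Npy2r*, a receptor of neuropeptide Y, *Htr2c*, a serotonin receptor, and *Gsta4*, a glutathione transferase, were at 53.1 ± 45.3, 62.6 ± 49.8 and 77.5 ± 48.9 CPM in cluster 14 (SD, n = 8) and had no UMI in the plate sums of cluster 12. *Zeb2*, a transcription factor, was at 60.9 ± 48.2 against 0.271 ± 0.663. *Crh* and *Fam150b* separated the clusters too, at 522 ± 236 against 10.2 ± 17.6 CPM and 166 ± 34.3 against 4.02 ± 6.32. *Reln* and *Ntng1* did not pass (191 ± 98.9 and 172 ± 81.0 CPM in cluster 12, edgeR adjusted p = 0.896 and 1.00). The lower genes included *Plk2*, *Pam*, *Baiap3* and *Itm2c*. With at least 5 cells per sum, 0 genes were higher than in cluster 12 and 4 lower.

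Against cluster 10, the other cluster rich in *Crh*, 336 of 13082 genes were higher in cluster 14 (2.57%) and 235 lower (1.8%). With the pair of clusters fitted alone, 54 were higher and 54 lower. *Crh* itself was lower in cluster 14 (522 ± 236 CPM, n = 8 plates, against 1743 ± 805, n = 7, log2 fold change -2.52 ± 0.77, edgeR adjusted p = 0.0470). *Klhdc8a*, *Fgf13*, *Plxna4*, *Caln1* and *Cacng5* had levels of 34.0 to 129 CPM in cluster 14 and none in the plate sums of cluster 10. *Fgf13* regulates sodium channels, *Plxna4* is a semaphorin receptor and *Cacng5* encodes an auxiliary protein of AMPA receptors. In turn *Scgn*, the calcium sensor secretagogin, was at 0.292 CPM against 128 ± 72.8, *Agtr1a*, the angiotensin II receptor, at 0 against 35.8 ± 28.6, *Adamts5*, a matrix protease, at 0.235 against 56.5 ± 60.4, *Prdm8* at 0.309 against 88.3 ± 82.8 and *Plk2* at 2.17 against 182 ± 72.3. *Scgn* was detected in 71.0% of cluster 10 cells and 1.75% of members, and *Agtr1a* in 40.3% and 0 of 57.

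Cluster 13, of 16 cells on 3 plates, shared *Fam150b* with cluster 14 (161 ± 68.0 CPM, SD, n = 3, against 166 ± 34.3, log2 fold change 0.19 ± 1.18, edgeR adjusted p = 1.00) and *Crh* in part (43.8% of cells), and none of its cells had a *Penk* UMI. Against cluster 13, 32 of 13082 genes were higher (0.245%) and 39 lower (0.298%), and against cluster 8, 30 were higher (0.229%) and 76 lower (0.581%). Over the 11 other clusters *Fam150b* and *Crh* were each higher in cluster 14 than in 9, *Reln* than in 8, *Ntng1* than in 7 and *Penk* than in 5. Clusters 12, 13 and 15 recurred among those not told apart, for *Reln*, *Ntng1* and *Penk* alike. The levels of *Sparcl1* in clusters 15, 12 and 13 were 169.9, 165 and 95.1 CPM, between the 409 of cluster 14 and the 17.9 of cluster 1.

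**Figure D5:**
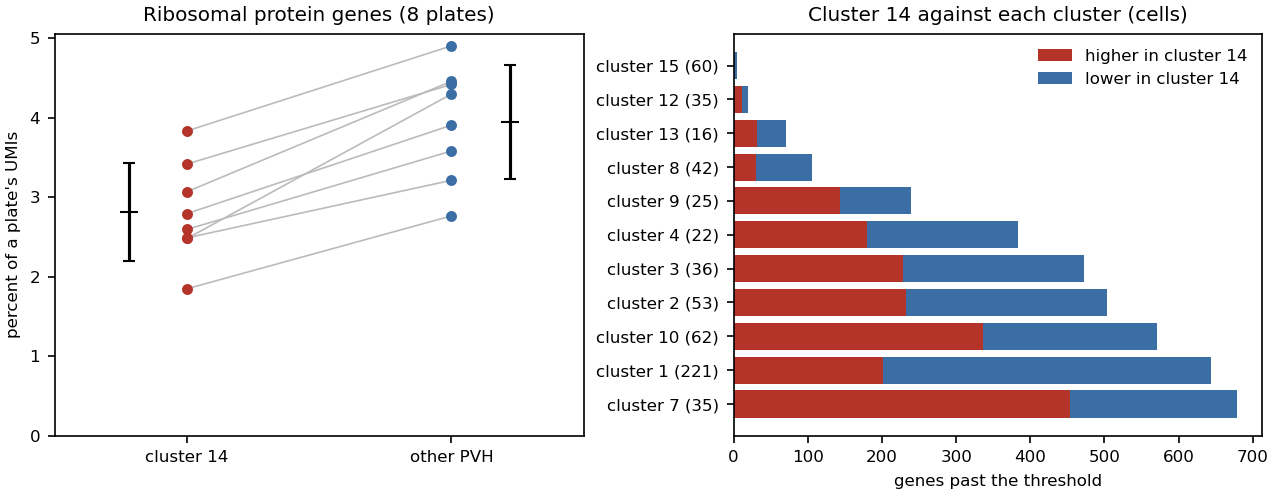
Left, percent of a plate's UMIs from ribosomal protein genes in cluster 14 (red) and the other PVH clusters (blue), 8 plates with mean ± SD, lower in cluster 14 on all 8. Right, number of genes higher (red) or lower (blue) in cluster 14 against each other cluster (cells in parentheses), from 4 against cluster 15 to 679 against cluster 7.

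Members were unevenly spread over plates. They made up 1.25% to 10.98% of the PVH cells on the 4 Q plates and 5.26% to 16.7% on the 6 AL and JM plates, with means of 4.77% ± 4.29 and 12.3% ± 4.30. The difference of -7.49 percentage points gave p = 0.0286 (exact two-sided permutation test over plates) and 0.0490 after adjustment over the 12 clusters. Counting splits by the size of the difference in either direction gave p = 0.0381 (0.0653 adjusted, exact permutation), and the adjusted value rose above 0.05 when any plate but Q5 was left out (0.0544 to 0.122). The difference of cluster 14 from the other cells was compared between the prefixes too. No gene of 10699 passed (edgeR interaction test, 874 at an unadjusted p under 0.05). In simulated data the same test recovered only 15% of genes changed 4-fold and 53% of those changed 16-fold. The absence of calls therefore does not show that the prefixes are alike. *Reln* had the smallest p of the markers, with a log2 fold change larger by 2.31 ± 0.49 on the Q plates (edgeR adjusted p = 0.294).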

How the data were processed

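The authors deposited UMI counts per gene and well: 10 tables of 96 wells with 48397 genes and 92 spike-ins (ERCC), and a table of cells kept with their clusters. The counts are not normalized. Submitters' notes name Trimmomatic 0.36, STAR 2.5.3a and GRCm38.p5, and the counter, annotation and UMI correction are not given in the sources used here. Labels and methods differ on sequencer and kit.

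Counts were summed per plate for cluster 14 and for the other PVH clusters (all but 5, 6 and 11), with at least 3 cells per sum, and tested with edgeR 4.0.16 (quasi-likelihood, TMM, plate as a block, Benjamini-Hochberg threshold 0.05). A fit of 73 sums of all PVH clusters gave the contrasts between clusters. Levels are CPM. Per-cell measures and shares were compared with exact permutation tests over plates. Named genes were the markers, the study's panel, the 15 most raised and 10 most lowered genes that passed, moved the same way on every plate and had a UMI in 30% of cells of the higher side, up to 5 passing genes per direction and list (any member of lists of 20 or fewer), and the 5 most changed per direction against clusters 10, 12 and 15. The members and gene lists were chosen with earlier results of these data known. Alternatives used DESeq2 1.42.0, limma 3.58.1, other normalizations and filters, thinned cells and plates or clusters left out. The fits were tested on simulated data. Tables were made in Python 3.11.15 (scipy 1.17.1, pandas 2.3.3, numpy 2.4.6) and fits in R 4.3.3. Some genes that the rule names are not reported here.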

Additional observations from a re-analysis of the deposited data

Results flagged for a closer look

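Over the 8 plates, 28 genes were examined for a plate of cluster 14 that stood far from the others, and 9 had one. The rate of about 1 in 20 that chance gives holds for normally spread values. It does not hold for genes at 0 on most plates, so the number flagged cannot be set against it. *Oxt* was at 11934 CPM on Q7, through 1 cell, while the other plates did not exceed 534. On the same plate *Vim* was at 1.24 CPM, *Sst* at 21.0 and *Plpp4* at 44.5. *Fam19a1* was at 0.785 CPM on Q5, *Hist1h2bc* at 4.596 on JM6, and *Plk2* at 17.0 and *Fezf2* at 9.42 on JM7. Most of these were single or few UMIs in a gene otherwise at 0. *Fam150b* was at 241 CPM on AL5, above the remaining plates.

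In the 42 cells of the clusters outside the PVH, which entered no comparison, *Penk* had a UMI in 21.4% of cells, *Reln* in 9.52% and *Ntng1* in 52.4%. *Crh* had one in 3 of these cells, with at most 4.41 CPM, and *Fam150b* in 1. Of the 42 cells, 1 had UMIs of all 5 markers.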

How the results depend on the processing

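Against the other PVH clusters, 152 genes were higher and 426 lower. The higher count was 398 with DESeq2, 91 with no filter on low counts, 235 with limma, 95 without cluster 1 and 10 on the Q plates alone. The lower count was 1118 with DESeq2, 195 without the plate block, 201 without cluster 1, 11 on the Q plates alone and 268 on those of AL and JM. Leaving out 1 plate gave 101 to 222 higher and 271 to 426 lower. Against cluster 10 (336 and 235), DESeq2 gave 861 and 564, the pair of clusters fitted alone 54 and 54, and at least 5 cells per sum 149 lower. Against cluster 12 (11 and 8), DESeq2 gave 291 and 120, at least 5 cells per sum 0 and 4, and the pair alone 15 lower. Against cluster 15 (1 and 3), DESeq2 gave 173 and 155, and the lower count was 5 with RLE normalization, 6 without the plate block, 1 with at least 5 cells per sum and 0 for the pair alone.

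The difference in share between prefixes was -4.75 points on plates with at least 3 members (exact permutation, adjusted p = 0.321), -7.49 with splits counted by size (0.0653), and -9.56 to -6.31 with 1 plate left out. Without cluster 1, the log2 ratio of total UMIs was 0.21 and that of gene UMIs per spike-in UMI 0.026, with the sign turned. At 3 UMIs or more, *Crh* was detected in 93.0% of members and *Ntng1* in 70.2%. The sign also turned for *Pdyn* (0.089, Q plates alone), *Gad2* (0.55, no plate block) and *Sim1* (0.017, no plate block, and 0.24, Q plates alone), none of which passed the test in the reported comparison. *Penk* had an edgeR adjusted p of 0.0250 without the block, 5.81e-05 without cluster 15, 2.64e-06 on the Q plates alone and 0.0106 without JM7, and 0.00120 by DESeq2. *Crh* lost its call with thinned cells (2.92 ± 1.04 on the log2 scale, edgeR adjusted p = 0.199). The cause of these moves was not tested. With few cells per plate, depth limits what could be seen of genes of low level.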
